A study of Mus musculus with 10 samples.

Results

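RNA of the ventral hippocampus (vHpc) was examined for 10 genes on mouse chromosome 2 that lie within 20 Mb of Bdnf. Their mean level over both treatments differed between the Bdnf genotypes in these libraries. They were Pla2g4e, Exd1, Dnajc17, Bambi-ps1, Ccdc73, Tgm7, Cd59a, Chrm5, Grem1 and 1700020I14Rik, 10 of the 24421 gene symbols in the table and 10 of the 270 tested genes within that distance of Bdnf. They were listed by name because of their genotype difference in these same libraries, so that difference is described here without a test. The question was whether the shift had the same size under vehicle and under E2.

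All mice were ovariectomized (OVX) C57BL/6 females, operated on at 70 to 80 days of age. After 2 weeks of recovery they drank vehicle (0.1% ethanol) or E2 (estradiol, 300 nM in 0.1% ethanol, 0.7 µg per day) for 6 weeks. Mice were group housed and drank from cage bottles, so mice of a cage shared a treatment. Which animals shared a cage is not given in the sources used here. WT mice carried no knock-in allele, and Het-Met mice carried 1 copy of the Met allele of Bdnf, a knock-in at the gene's own locus. Both genotypes came from in-house breeding of a line made elsewhere, and the strain of the cells in which the allele was made is not given in the sources used here. Each library held RNA pooled from 2 animals, so animals cannot be told apart. In OVX WT mice there were 2 libraries with vehicle (replicates 1 and 3) and 2 with E2 (replicates 1 and 2), and in OVX Het-Met mice 3 with vehicle and 3 with E2. Values are CPM, reads scaled to the same total of 1000000 in every library, and between 19820184 and 23267410 reads per library were counted. Markers of hippocampal neurons (9 of 9), astrocytes, oligodendrocytes and microglia were all detected. Choroid plexus markers differed most between libraries, with a summed level of 160 to 1119 CPM in vehicle-treated OVX WT, 1978 to 2631 in E2-treated OVX WT, 1507 to 3326 in vehicle-treated OVX Het-Met and 279 to 1613 in E2-treated OVX Het-Met libraries. In bulk tissue, fewer cells of a type and less RNA per cell cannot be told apart.

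Bdnf encodes a neurotrophin that acts on the TrkB receptor and supports synaptic plasticity in the hippocampus. A gene changed by homologous recombination stays joined to the DNA on both sides of it, and breeding shortens that stretch only where a crossover falls close by. When the targeted cells and the breeding strain differ, nearby genes can therefore differ in sequence as well, and some of those differences act on the level of RNA from the same chromosome. The values here are reads per gene with no base calls, so which strain's DNA flanked the Met allele was not tested.

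The 10 genes do not form 1 pathway. Pla2g4e encodes a cytosolic phospholipase A2 enzyme that works as an N-acyltransferase and makes the lipids from which N-acylethanolamines such as anandamide are formed. Exd1 encodes an exonuclease-domain protein of the piRNA pathway of germ cells. Dnajc17 encodes a J-domain co-chaperone of the nucleus that is linked to splicing. Cd59a encodes a surface protein that stops assembly of the complement membrane attack complex. Chrm5 encodes the M5 muscarinic acetylcholine receptor, and Grem1 a secreted antagonist of bone morphogenetic proteins (BMPs). Tgm7 encodes a transglutaminase, an enzyme family that crosslinks proteins. Ccdc73 encodes a coiled-coil protein. Bambi-ps1 is annotated as a processed pseudogene, a reverse-transcribed copy of Bambi, which encodes a decoy receptor of the BMP pathway. 1700020I14Rik is annotated as a long intergenic non-coding RNA.

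In the mm10 assembly (GRCm38, GENCODE vM21), Bdnf spans chr2:109674700-109727007 on the plus strand. Cd59a (chr2:104095801-104115354) and Ccdc73 (chr2:104867805-105017904), both on the plus strand, lie 5.56 and 4.66 Mb before it, toward lower coordinates. The other 8 genes lie after it. Chrm5 (chr2:112479171-112480769, a single-exon model) is 2.75 Mb away and Grem1 (chr2:113746164-113758646) 4.02 Mb away. Dnajc17 (chr2:119172500-119208795), Exd1 (chr2:119516505-119547627), 1700020I14Rik (chr2:119594297-119607502) and Pla2g4e (chr2:120166412-120245335) form a cluster at 9.45, 9.79, 9.87 and 10.4 Mb. Tgm7 (chr2:121093565-121109795) is 11.4 Mb and Bambi-ps1 (chr2:122466935-122467526) 12.7 Mb away. Of these 8 genes, 1700020I14Rik is on the plus strand and the rest on the minus strand.

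RefSeq (GRCm38.p6) gave a start site for 8 of the 10 genes, leaving out Bambi-ps1 and 1700020I14Rik. The 250 bases before that start are printed for Pla2g4e, whose genotype difference over both treatments was the largest of the 10 and whose E2-treated libraries were higher in both genotypes, and for Cd59a, whose window held no CpG. Pla2g4e is on the minus strand (chr2:120245336-120245585), and 170 bases of its window are also exon of Gm13997, a processed transcript on the same strand. Cd59a is on the plus strand (chr2:104095551-104095800).
Pla2g4e: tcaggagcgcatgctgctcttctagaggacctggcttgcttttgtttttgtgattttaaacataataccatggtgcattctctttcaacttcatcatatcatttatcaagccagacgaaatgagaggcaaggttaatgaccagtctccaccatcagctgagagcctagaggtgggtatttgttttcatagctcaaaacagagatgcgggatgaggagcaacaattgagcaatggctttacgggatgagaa
Cd59a: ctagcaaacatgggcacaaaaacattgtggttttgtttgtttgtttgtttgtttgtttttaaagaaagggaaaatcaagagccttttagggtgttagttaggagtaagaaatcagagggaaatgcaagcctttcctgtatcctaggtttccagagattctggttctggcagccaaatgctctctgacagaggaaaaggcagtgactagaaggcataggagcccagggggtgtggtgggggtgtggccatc
Their GC content was 43.2% and 44.8%, and the Pla2g4e window held 4 CpG. At the other end were the windows of Grem1 (72% GC, 24 CpG), Exd1 (68%, 21 CpG) and Dnajc17 (65.6%, 24 CpG), against medians of 52.4% GC and 6 CpG over 32851 RefSeq promoters. The Exd1 and Dnajc17 windows overlap exons of the genes on the other strand, Chp1 and Zfyve19. Because E2 was the treatment, the windows were searched on both strands for the estrogen response element, which is GGTCA and TGACC set 3 bases apart, and for the single arm AGGTCA, which overlaps the full element in part. None of the 8 windows held the full element, which 0.0639% of all promoters hold, and none held a TATAAA (12.4% of all promoters). The single arm was found in 3 of 8 windows, against 14% of all promoters, each time as TGACCT, its reverse complement, shown in capitals in a stretch of 30 bases on the gene's strand, the minus strand (chr2:112480862-112480891 for Chrm5, chr2:113758864-113758893 for Grem1 and chr2:121116397-121116426 for Tgm7).
Chrm5: gatgagcggaacTGACCTgtttgtgtttct
Grem1: ggttccctggggTGACCTctcccacccaga
Tgm7: acttgaagagccttgacTGACCTgagggag
The first base of the match lies 62, 233 and 13 bases before the start of Chrm5, Grem1 and Tgm7. For these 3 genes the first 30 bases after the RefSeq start were not found in a GENCODE transcript of the gene, so the start itself is uncertain. A match is a run of letters and not a measured binding site.

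Most of the 10 genes were low in vHpc. All of them passed the filter of a mean of at least 0.5 CPM that 15081 genes passed. Tgm7 did so at 0.511 CPM only through its WT libraries, since its Het-Met libraries all lay under 0.5 CPM, so in this gene the filter itself needs a difference. Per kilobase of exon, the mean level ran from 0.238 CPM in Tgm7 and 0.259 in Exd1 to 3.80 in Pla2g4e, 3.81 in Cd59a and 4.79 in 1700020I14Rik. That placed Tgm7 at the 3.75th and 1700020I14Rik at the 47.9th percentile of the genes tested, and Bdnf itself, at 5.93 CPM per kilobase, at the 53.7th. Tgm7 rested on 5 to 21 reads per library and Exd1 on 15 to 55, whereas Pla2g4e rested on 237 to 816. The spread within groups on the log2 scale was above the median of all genes in each of the 10, from the 50.9th percentile in Pla2g4e to the 98.6th in 1700020I14Rik.

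Pla2g4e was higher in Het-Met mice under both treatments, and E2-treated libraries were higher in both genotypes. It stood at 13.1 and 11.7 CPM in vehicle-treated OVX WT libraries and at 33.0, 25.3 and 30.5 CPM in vehicle-treated OVX Het-Met libraries. With E2 it stood at 20.1 and 20.2 CPM in OVX WT and at 35.4, 36.5 and 38.7 CPM in OVX Het-Met libraries. Every Het-Met library was above every WT library, whatever the treatment. Group means gave a ratio of 2.38 under vehicle and 1.83 under E2, and the difference of log2(CPM + 0.5), the scale of all fitted values here, was 1.21 ± 0.11 (SE) and 0.85 ± 0.11. Leaving out any single library kept these values between 1.13 and 1.32 and between 0.82 and 0.88.

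Exd1, Dnajc17 and Bambi-ps1 were the other 3 genes with more RNA in Het-Met mice. Exd1 was at 0.972 and 0.743 CPM in vehicle-treated OVX WT and at 1.90, 1.51 and 2.55 CPM in vehicle-treated OVX Het-Met libraries. With E2 it was at 1.35 and 0.946 CPM in OVX WT and at 1.86, 1.61 and 2.23 CPM in OVX Het-Met libraries. The genotypes did not overlap under either treatment, and the log2 difference was 0.86 ± 0.22 under vehicle and 0.55 ± 0.22 under E2. The first exon of Chp1, a calcineurin-like calcium-binding protein, starts within 0.07 kb of Exd1 on the opposite strand, and Chp1 showed no such difference (log2 0.03 ± 0.05 over both treatments, from a mean of 127 CPM).

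Dnajc17 was at 3.01 and 3.12 CPM in vehicle-treated OVX WT libraries and at 5.22, 3.63 and 3.66 CPM in vehicle-treated OVX Het-Met libraries. Under E2 the values were 3.05 and 3.35 CPM in OVX WT and 3.43, 5.26 and 4.65 CPM in OVX Het-Met libraries. The genotypes did not overlap, but under E2 the lowest Het-Met library was close to the highest WT library. Its log2 difference was 0.37 ± 0.19 under vehicle and 0.40 ± 0.19 under E2. The first was 0.22 without replicate 1 of OVX Het-Met mice with vehicle, its highest vehicle library, and the second 0.26 with the choroid plexus markers as a covariate. Dnajc17 shares 108 exonic bases (8.26% of its exons) with Zfyve19 on the opposite strand, and the strand setting of the counting is not given in the sources used here. Zfyve19 stood at group means between 19.1 and 20.6 CPM with a log2 difference of 0.03 ± 0.08 over both treatments.

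Bambi-ps1 was at 1.11 and 1.29 CPM in vehicle-treated OVX WT and at 1.42, 1.46 and 1.76 CPM in vehicle-treated OVX Het-Met libraries. The E2-treated libraries were at 1.03 and 0.946 CPM in OVX WT and at 1.37, 1.98 and 2.47 CPM in OVX Het-Met libraries. Again no library of one genotype reached the other, and the log2 difference was 0.27 ± 0.21 under vehicle (0.46 with the choroid plexus covariate) and 0.69 ± 0.21 under E2. This pseudogene is a near copy of Bambi, so how the counting split reads between them is uncertain. Bambi, on another chromosome, had group means of 5.28 ± 1.44 CPM with vehicle and 5.45 ± 0.921 CPM with E2 in OVX WT libraries (SD, n = 2), and of 5.66 ± 0.584 and 7.03 ± 0.597 CPM in OVX Het-Met libraries (SD, n = 3).

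Ccdc73 and Tgm7 were lower in Het-Met mice under both treatments without overlap of the libraries. Ccdc73 was at 14.9 and 15.7 CPM in vehicle-treated OVX WT and at 10.8, 11.8 and 9.04 CPM in vehicle-treated OVX Het-Met libraries. In the E2-treated groups it was at 12.2 and 12.7 CPM in OVX WT and at 10.3, 6.59 and 10.6 CPM in OVX Het-Met libraries. The log2 difference was -0.53 ± 0.17 under vehicle and -0.45 ± 0.17 under E2, and the latter was -0.24 when the lowest library, replicate 2 of OVX Het-Met mice with E2, was left out. Eif3m, which shares 82 exonic bases with Ccdc73 on the opposite strand, had a log2 difference of 0.03 ± 0.11 over both treatments.

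Tgm7 was at 0.972 and 0.496 CPM (21 and 10 reads) in vehicle-treated OVX WT and at 0.332, 0.252 and 0.417 CPM (7, 5 and 9 reads) in vehicle-treated OVX Het-Met libraries. Its E2-treated libraries were at 0.763 and 0.645 CPM in OVX WT and at 0.489, 0.415 and 0.332 CPM in OVX Het-Met libraries. Every WT library was higher than every Het-Met library, and the closest were 0.496 and 0.489 CPM, from 10 reads each. The pseudocount weighs on a gene this low. Its log2 difference was -0.54 ± 0.24 under vehicle and -0.40 ± 0.24 under E2 in the fit, and -1.14 and -0.78 in edgeR's fit of the recovered reads. Without replicate 1 of the vehicle-treated OVX WT group the vehicle value was -0.26, and without replicate 3 it was -0.82.

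Grem1 and 1700020I14Rik were lower in Het-Met mice with overlap under vehicle. Grem1 was at 2.08 and 2.78 CPM in vehicle-treated OVX WT and at 1.57, 2.12 and 1.44 CPM in vehicle-treated OVX Het-Met libraries. With E2 it was at 2.15 and 2.32 CPM in OVX WT and at 1.76, 1.43 and 1.71 CPM in OVX Het-Met libraries. Under vehicle 1 Het-Met library thus lay within the WT range, and the log2 difference was -0.41 ± 0.20 under vehicle and -0.36 ± 0.20 under E2. The vehicle value was -0.24 when the higher WT library (replicate 3) was left out.

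1700020I14Rik was at 33.7 and 61.8 CPM in vehicle-treated OVX WT and at 22.2, 47.6 and 31.6 CPM in vehicle-treated OVX Het-Met libraries. The values with E2 were 49.5 and 45.6 CPM in OVX WT and 38.5, 36.6 and 30.7 CPM in OVX Het-Met libraries. The vehicle libraries of each genotype were spread widely and overlapped, and those with E2 did not overlap. Its log2 difference was -0.50 ± 0.25 under vehicle and -0.43 ± 0.25 under E2, and the vehicle value rested on single WT libraries, being -0.06 when the higher of them (replicate 3) was left out and -0.93 when the lower (replicate 1) was. Leaving out Het-Met replicate 1 or 2 with vehicle gave -0.23 or -0.77.

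Cd59a and Chrm5 were lower in Het-Met mice mainly under E2. Cd59a was at 9.16 and 6.89 CPM in vehicle-treated OVX WT and at 5.93, 6.10 and 7.10 CPM in vehicle-treated OVX Het-Met libraries. In the E2-treated groups it stood at 9.65 and 10.1 CPM in OVX WT and at 5.73, 3.41 and 4.93 CPM in OVX Het-Met libraries. The genotypes overlapped under vehicle and were apart under E2. Its log2 difference was -0.30 ± 0.19 under vehicle and -1.02 ± 0.19 under E2, and the vehicle value moved to -0.11 when the higher WT library (replicate 1) was left out and to -0.49 when the lower (replicate 3) was. Cd59b, its close copy, averaged 0.302 CPM and was below the filter, and a split of reads between both is uncertain.

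Chrm5 was at 2.45 and 2.53 CPM in vehicle-treated OVX WT and at 2.47, 2.88 and 1.86 CPM in vehicle-treated OVX Het-Met libraries. With E2 it was at 3.19 and 3.65 CPM in OVX WT and at 1.47, 1.15 and 2.04 CPM in OVX Het-Met libraries. Under vehicle both WT libraries lay within the Het-Met range, and under E2 every WT library was above every Het-Met library. Its log2 difference was -0.06 ± 0.21 under vehicle and -0.95 ± 0.21 under E2. The vehicle value turned to 0.08 without replicate 3 of the vehicle-treated OVX Het-Met group, was -0.18 without its replicate 2, and turned to 0.05 with the choroid plexus markers as a covariate.

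**Figure D1:**
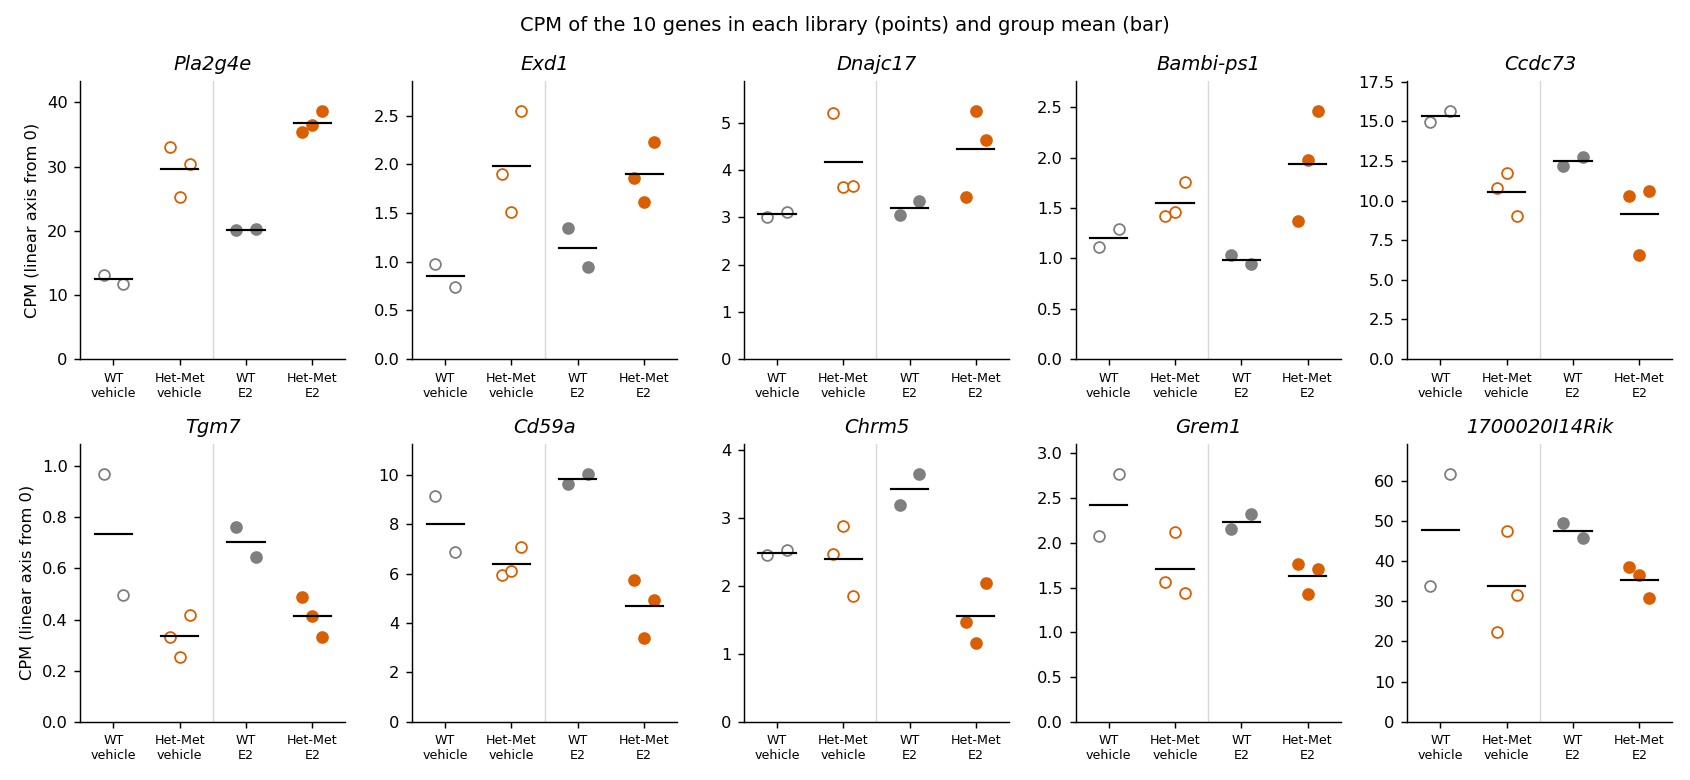
CPM of each of the 10 genes (vertical axes from 0, one scale per gene) in every library (points), with the group mean as a bar, for vehicle (open) and E2 (filled) in OVX WT (grey) and OVX Het-Met mice (orange). Pla2g4e, Exd1, Dnajc17 and Bambi-ps1 are higher and Ccdc73 and Tgm7 lower in all Het-Met libraries of a treatment, and Cd59a, Chrm5, Grem1 and 1700020I14Rik overlap under vehicle.

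In the fit over all genes, 10 of the 10 genes had an unadjusted p under 0.05 and a fold above 1.3 for genotype over both treatments, against 1.94% of the genes tested, which is the choice of the genes and not a result. They were 10 of 12 such genes within 20 Mb of Bdnf. The other 2 were D930015M05Rik and 2810002D19Rik, with log2 differences of -0.45 and -0.42, and both lay over 15 Mb before Bdnf. Just inside the fold limit were Grem1 and Dnajc17, at -0.39 and 0.39, and just outside it were Fahd2a, Srp14 and Bmf, at 0.37, 0.36 and -0.33. The libraries of the genotypes were apart under both treatments in the same direction in 6 of the 10 genes, against 7.33% of all genes. Under E2 alone they were apart in all 10, against 35.8%, and under vehicle alone in 6, against 24.7%. At an adjusted p under 0.05 and a fold above 1.3 over both treatments, 1 of the 10, Pla2g4e, was called in limma, against 0.0265% of all genes. These counts come from the genotype values that chose the genes, so nothing is read from them.

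The interaction is the Het-Met minus WT difference under E2 less that under vehicle. It was not the contrast the list was chosen on, but it is made of the same genotype differences. Genes listed for a shift under both treatments favour a small interaction. A large difference under 1 treatment alone can bring both a place in the list and an interaction. For 5 of the 10 genes the estimate was near 0, but the intervals were wide. For Dnajc17 it was 0.03 (95% interval -0.56 to 0.61), for Grem1 0.05 (-0.54 to 0.64), for 1700020I14Rik 0.06 (-0.69 to 0.82), for Ccdc73 0.07 (-0.45 to 0.60) and for Tgm7 0.14 (-0.57 to 0.85). A constant shift and a change of the shift as large as the shift itself both lay inside these 5 intervals. Exd1 (-0.31, -0.98 to 0.36) and Bambi-ps1 (0.42, -0.22 to 1.06) had larger estimates whose intervals also held 0, and with libraries left out they ran from -0.49 to -0.13 and from 0.27 to 0.60.

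For Chrm5, Cd59a and Pla2g4e the interval of the interaction did not hold 0. It was -0.89 ± 0.30 for Chrm5 (95% interval -1.53 to -0.26, unadjusted p = 0.00925 and adjusted p = 0.566 in limma), as the difference between genotypes was present under E2 and near 0 under vehicle. It was -0.72 ± 0.26 for Cd59a (-1.28 to -0.16, unadjusted p = 0.0149, adjusted p = 0.683), where the shift was larger under E2. It was -0.36 ± 0.16 for Pla2g4e (-0.69 to -0.03, unadjusted p = 0.0364, adjusted p = 0.845), where the shift was smaller under E2. Thus 3 of the 10 genes had an unadjusted p under 0.05, against 5.42% of the genes tested, and 0 were called at an adjusted p under 0.05 and a fold above 1.3, against 0.0729%. The choice of the genes bears on the 3 of 10, so nothing is read from that count. edgeR and DESeq2 on the recovered reads also called 0 of the 10, and gave these same 3 genes an unadjusted p under 0.05. Among the other 260 genes within 20 Mb of Bdnf, 18 had an unadjusted p under 0.05 and 0 were called.

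The scale mattered for Pla2g4e. In CPM, its Het-Met libraries exceeded its WT libraries by 17.2 ± 2.37 (SE) under vehicle and by 16.7 ± 0.977 under E2, and the difference between the treatments was -0.472 ± 2.56 CPM. In CPM no change of the amount added in Het-Met mice was thus seen, but a change of several CPM lay within this error. The ratio of group means was 2.38 under vehicle and 1.83 under E2, and the interaction on the log2 scale did not pass the adjusted threshold. For Cd59a the difference between treatments in CPM was -3.51 ± 1.39 and for Chrm5 -1.78 ± 0.460. These SE come from groups of 2 and 3 libraries. Both scales use the same genotype differences that chose the genes, so the CPM values are no second test.

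The choroid plexus level ran in the direction of the interaction. Over both treatments 0 of its 15 markers had an unadjusted p under 0.05 for genotype in limma. That average cancels opposite differences, as the summed levels were apart under each treatment, higher in Het-Met under vehicle and lower under E2. The summed CPM of the choroid plexus markers, given above, was higher with E2 in OVX WT and mostly lower with E2 in OVX Het-Met libraries. The group means of Cd59a and Chrm5 moved the same way with E2 within each genotype. Under vehicle they were not higher in Het-Met mice, at 8.02 CPM in OVX WT and 6.38 CPM in OVX Het-Met for Cd59a. For Chrm5 these means were 2.49 and 2.40 CPM. The 12 meninges markers had the order of the choroid plexus markers. Their summed levels were 350 to 388 CPM with vehicle and 489 to 501 CPM with E2 in OVX WT, and 428 to 486 and 356 to 435 CPM in OVX Het-Met libraries. The part of the meninges markers in the interaction was not tested. With the choroid plexus level as a covariate the interaction was -1.12 for Chrm5 (unadjusted p = 0.0370 in limma), -0.70 for Cd59a (unadjusted p = 0.125) and -0.47 for Pla2g4e (unadjusted p = 0.0903). The genotype difference of Pla2g4e was then 1.26 under vehicle and 0.80 under E2, whereas that of 1700020I14Rik was -0.79 and -0.13. Without the covariate the interaction was -0.89 for Chrm5, -0.72 for Cd59a and -0.36 for Pla2g4e, so the higher p came with estimates of similar or larger size. The covariate ran in the order of the interaction, so this fit cannot tell the part of the choroid plexus in it. Among marker lists of other cells, 4 of 8 thalamus markers and 3 of 9 microglia markers were higher in Het-Met mice at an unadjusted p under 0.05, against 16.6% of all genes in either direction. Their summed levels were 127 to 139 CPM for thalamus and 415 to 439 CPM for microglia in WT libraries, and 140 to 187 CPM and 426 to 485 CPM in Het-Met libraries, and their part in the values of the 10 genes was not tested.

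**Figure D2:**
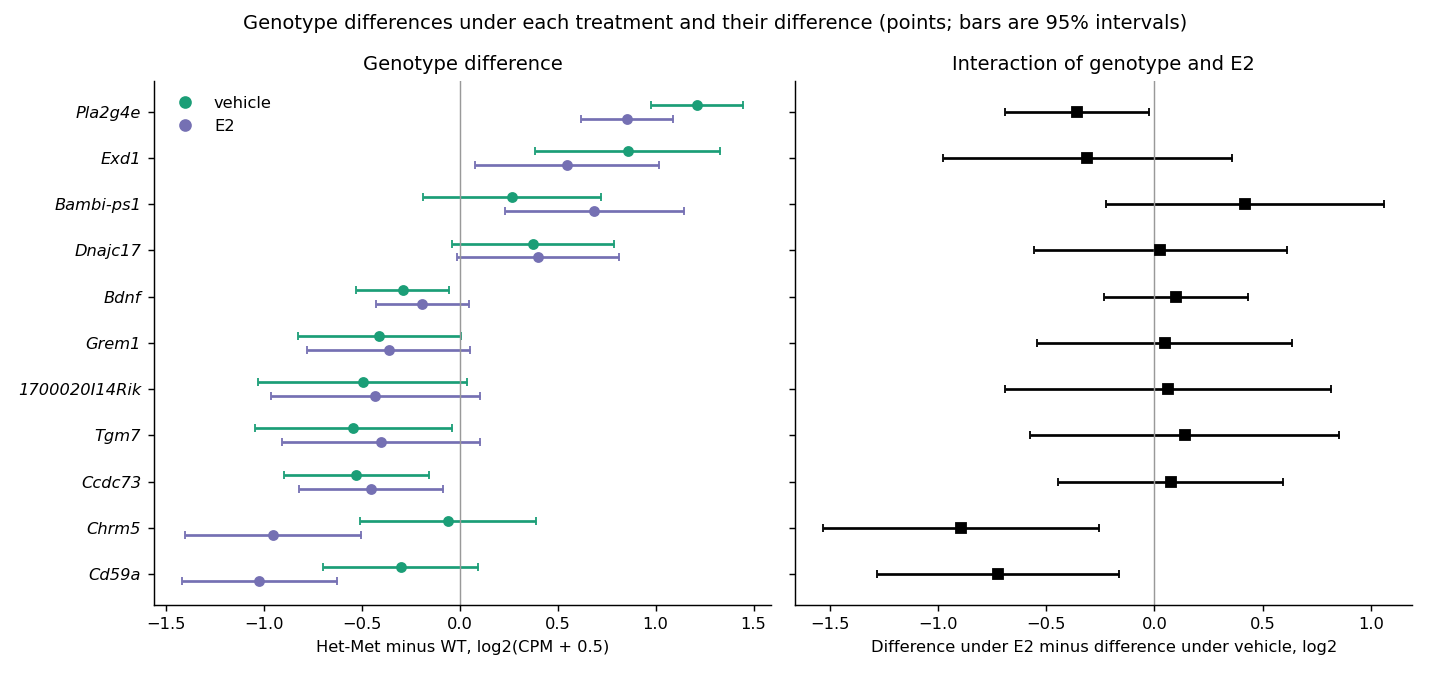
Het-Met minus WT difference of log2(CPM + 0.5) under vehicle and E2 (left) and the E2 minus vehicle difference of that difference (right) for the 10 genes and Bdnf, as points with 95% intervals. The intervals of the interaction hold 0 except for Pla2g4e, Chrm5 and Cd59a, all 3 with negative estimates.

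The list was not chosen on the effect of E2, but the E2 difference within 1 genotype shares libraries with the genotype differences. Over both genotypes the E2 difference was largest in Pla2g4e. Its mean level with E2 was 1.62 times that with vehicle in OVX WT mice (log2 0.68 ± 0.12, unadjusted p = 5.09e-05) and 1.25 times in OVX Het-Met mice (0.32 ± 0.10, unadjusted p = 0.00559 in limma). Over both genotypes the log2 difference was 0.50 ± 0.08 (95% interval 0.33 to 0.66, unadjusted p = 1.25e-05, adjusted p = 0.0628 in limma), with every E2-treated library above every vehicle-treated library of its genotype. The adjusted p was 0.0854 in OVX WT and 0.742 in OVX Het-Met mice, so none of these passed the adjusted threshold of limma. Over both genotypes it did pass with median-of-ratios (adjusted p = 0.0390), TMM (0.0455) or quantile scaling (0.0474) and in DESeq2 (8.62e-05), and not in edgeR (0.0542). Over the alternatives the adjusted p ran from 8.62e-05 to 0.619.

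None of the other 9 genes was called for E2 by limma at an adjusted p under 0.05 and a fold above 1.3, against 0.0133% of all genes in OVX WT mice, 0% in OVX Het-Met mice and 0.00663% over both genotypes. Of the 10 genes, 1 had an unadjusted p under 0.05 over both genotypes, against 3.22% of all genes. In OVX WT mice it was 1 of 10, against 4.04%, and in OVX Het-Met mice 3 of 10, against 5.45%. In the latter, Cd59a had a log2 difference of -0.43 ± 0.17 (unadjusted p = 0.0208 and adjusted p = 0.858 in limma), and Chrm5 one of -0.50 ± 0.19 (unadjusted p = 0.0175, adjusted p = 0.826). In OVX WT mice both pointed the other way, at 0.29 ± 0.20 and 0.39 ± 0.23. For Cd59a these values rested on single libraries, as the Het-Met one was -0.24 without replicate 2 of the E2-treated group, and the WT one moved to 0.099 or 0.49 when replicate 3 or replicate 1 with vehicle was left out. Ccdc73 was lower with E2 in both genotypes without passing the threshold (log2 -0.25 ± 0.12 over both, unadjusted p = 0.0601 in limma, and -0.14 without replicate 2 of OVX Het-Met mice with E2). For Dnajc17, Grem1, Tgm7, Bambi-ps1 and 1700020I14Rik the estimate over both genotypes lay between -0.06 and 0.09, with intervals that reached from -0.36 in Grem1 to 0.47 in 1700020I14Rik. For Exd1 it was 0.12 (95% interval -0.22 to 0.45).

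**Figure D3:**
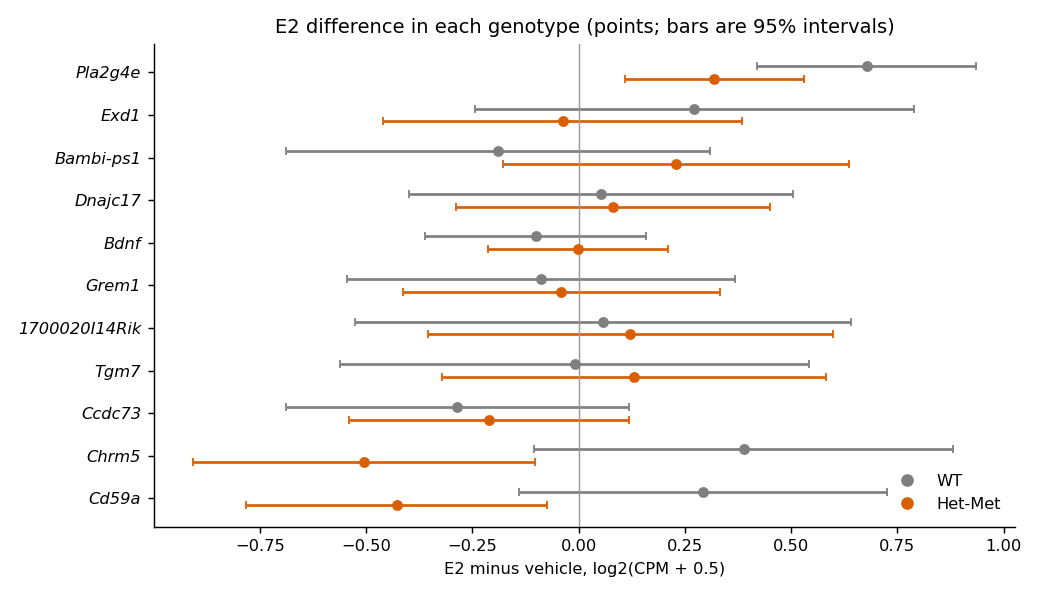
E2 minus vehicle difference of log2(CPM + 0.5) in OVX WT (grey) and OVX Het-Met mice (orange) for the 10 genes and Bdnf, as points with 95% intervals. Pla2g4e is above 0 in both genotypes, and Cd59a and Chrm5 are below 0 in Het-Met and above 0 in WT mice, with WT intervals that hold 0.

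Bdnf, the gene that carries the knock-in, was lower in Het-Met mice under each treatment. In OVX WT libraries it stood at 39.0 and 45.2 CPM with vehicle and at 34.7 and 44.0 CPM with E2. In OVX Het-Met libraries it was at 32.9, 31.7 and 38.4 CPM with vehicle and 33.5, 34.7 and 34.4 CPM with E2. The genotypes were apart under each treatment, but under E2 by only 34.73 against 34.67 CPM at the closest. The log2 difference was -0.29 ± 0.11 under vehicle and -0.19 ± 0.11 under E2, and the interaction was 0.10 (95% interval -0.23 to 0.43). With libraries left out the value ran from -0.40 to -0.19 under vehicle and from -0.36 to -0.022 under E2. Reads per gene do not show the Met codon, so Bdnf's level does not check the genotype labels.

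The nearest tested gene on each side of the 10 genes gave 19 different genes, Chp1 standing next to both Exd1 and 1700020I14Rik. Over both treatments 5 of the 19 had an unadjusted p under 0.05 in limma, against 16.6% of all genes, and 0 of them a fold above 1.3 as well, against 1.94%. Libraries of the genotypes were apart under both treatments in 2 of the 19, against 7.33%. The log2 differences ran from -0.26 to 0.27. Of the 5 genes, 4 had the sign of the gene they adjoin, namely Rmdn3 beside Dnajc17 (0.11 ± 0.05), D430041D05Rik beside Cd59a (-0.17 ± 0.05), Fmn1, which encodes a formin, beside Grem1 (-0.22 ± 0.09) and Shf beside Bambi-ps1 (0.27 ± 0.06). The other was Scg5, a chaperone of prohormone convertase, on the far side of Grem1 from Fmn1, which was higher in Het-Met mice (0.25 ± 0.06). Over all neighbours, whatever their p, the opposite sign to the adjoining gene was more common than the same sign, so nothing is read from the 4. Scg5 and Shf were the 2 genes without overlap. Around Pla2g4e, Ehd4, which encodes an endocytic recycling protein, was at -0.04 ± 0.09 only 11.8 kb away, and Vps39, a subunit of a lysosomal tethering complex, at -0.04 ± 0.05. Fbxo3, on the other side of Cd59a, was at 0.06 ± 0.05, and around Chrm5, Emc7 and Aven were at 0.06 ± 0.07 and 0.07 ± 0.10.

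Farther out, few other genes passed the same limits. Without them, 0 of 38 tested genes within 5 Mb of Bdnf, 0 of 62 at 5 to 10 Mb and 2 of 160 at 10 to 20 Mb had an unadjusted p under 0.05 and a fold above 1.3 for genotype over both treatments. That is 0.769% of the 260, against 1.94% of genes on other chromosomes, and taking the 10 genes out lowers it by design. With them it was 4.44% of 270. At 20 to 40 Mb it was 0.493% of 203 genes. Libraries that did not overlap between genotypes under both treatments in the same direction were counted in 24 of the 260 (9.23%), of which 17 were higher and 7 lower in Het-Met mice, against 7.33% of all genes. The share was 12% of 166 genes after Bdnf and 4.26% of 94 genes before it.

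By absolute difference these were led by Srp14, a subunit of the signal recognition particle, at log2 0.36 ± 0.07 (group means of 79.9 CPM in OVX WT and 106 CPM in OVX Het-Met libraries with vehicle, and of 82.6 and 104 CPM with E2). Next came Bmf, a pro-apoptotic BH3-only protein, at -0.33 ± 0.12, and Meis2, a homeodomain transcription factor, at -0.33 ± 0.07. Rhov, Chchd5, Shf, B230118H07Rik, Scg5 and Nop10 were higher in Het-Met mice by 0.31, 0.31, 0.27, 0.25, 0.25 and 0.24 on the log2 scale, and Spg11 was lower (-0.27). In each of these 10 genes the difference kept its sign under vehicle and E2, as the rule for naming them requires. None of them reached the adjusted threshold in limma, and Srp14 had the lowest adjusted p, 0.103.

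**Figure D4:**
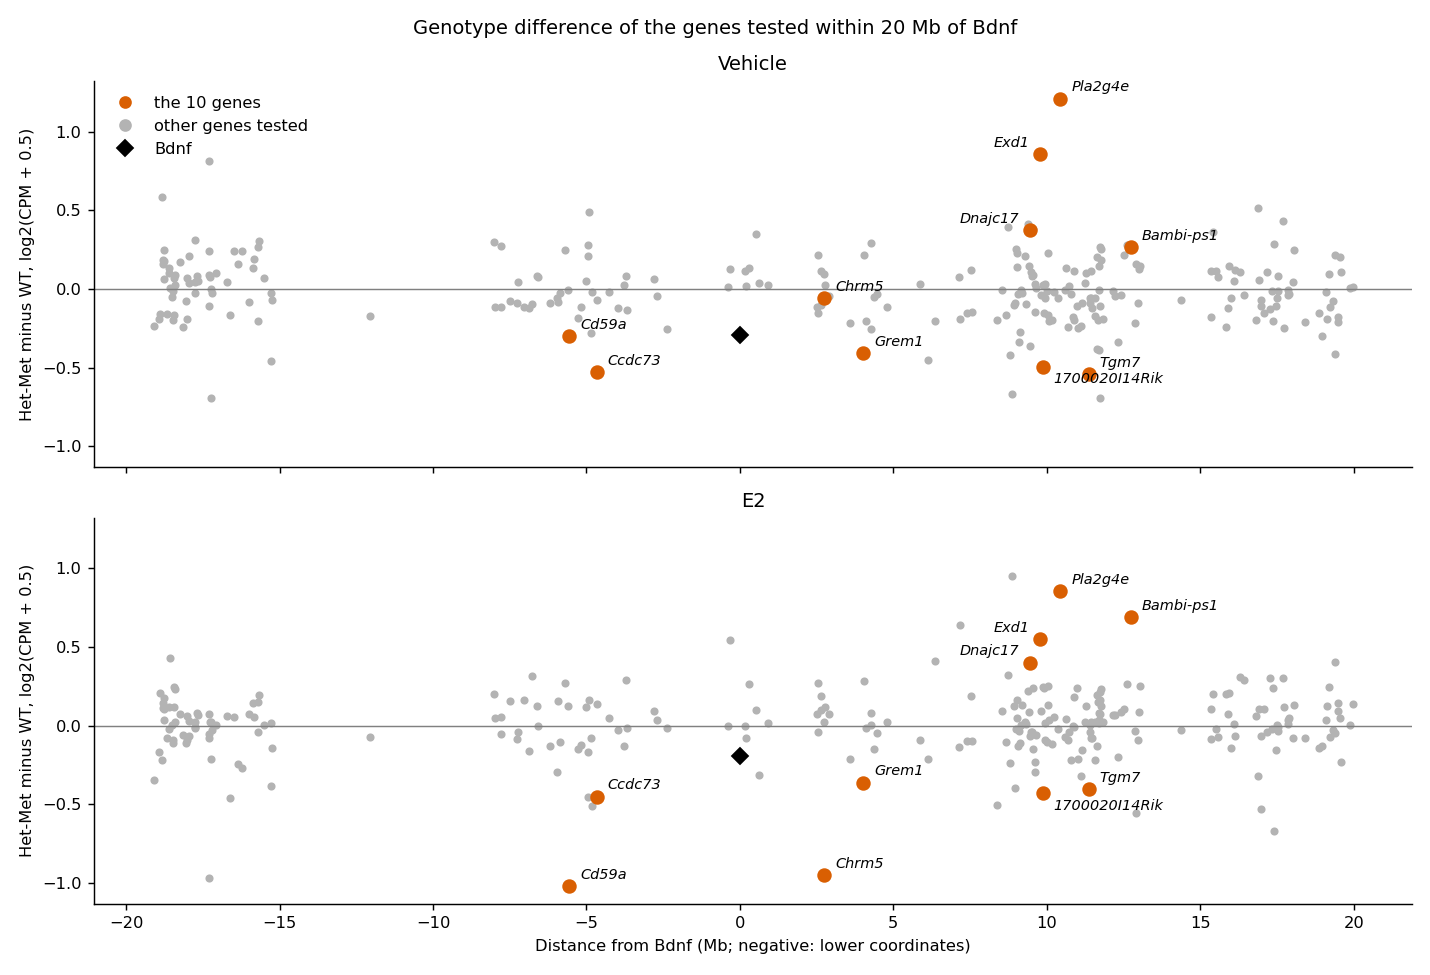
Het-Met minus WT difference of log2(CPM + 0.5) under vehicle (top) and E2 (bottom) for the 270 genes tested within 20 Mb of Bdnf and Bdnf itself, against distance from Bdnf in Mb. The 10 genes (orange) lie between 5.56 Mb before and 12.7 Mb after Bdnf among other genes (grey) that are mostly near 0, and Chrm5 and Cd59a are farther from 0 under E2.

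Relatives of the 10 genes were examined by family. Of the other group IV phospholipases A2, only Pla2g4a, the calcium-dependent enzyme that releases arachidonic acid, passed the filter, and its log2 difference over both treatments was 0.23 ± 0.14 (adjusted p = 0.421). Pla2g4b, Pla2g4d and Pla2g4f, also on chromosome 2, averaged 0.0834, 0.0607 and 0.0763 CPM. Among transglutaminases 4 were tested and 0 had an unadjusted p under 0.05 for genotype over both treatments, with Tgm2, the tissue transglutaminase, at 0.06 ± 0.11. The other 4 muscarinic receptors were tested, and 0 passed at an unadjusted p under 0.05 under either treatment. Chrm1, the main receptor of the family in hippocampal pyramidal cells, was at -0.05 ± 0.05 and Chrm2, often presynaptic, at -0.38 ± 0.20 with an adjusted p of 0.346.

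Of 26 genes of the BMP pathway, 2 were higher and 4 lower at an unadjusted p under 0.05 over both treatments, 0 were called over both treatments, and the median log2 difference was -0.02 against 0.02 for all genes. Under E2 1 of them was called, Bmp6, a ligand, at -0.86 (adjusted p = 0.0418), against 0.0265% of all genes. Under vehicle it was at 0.17 (adjusted p = 0.650). The call under E2 was lost with the choroid plexus covariate, without a filter, and without either E2-treated WT library or replicate 2 of OVX Het-Met mice with E2, where 0 genes were called. It was also lost with quantile normalization and without replicate 1 or replicate 2 of OVX Het-Met mice with vehicle, where 0 lower genes were called. The group means of Bmp6 were 7.26 CPM with vehicle and 11.96 CPM with E2 in OVX WT and 8.26 and 6.40 CPM in OVX Het-Met libraries. That is the order of the choroid plexus and meninges levels, whose part in it was not tested beyond the choroid plexus covariate. Noggin (Nog), another BMP antagonist, was at 0.16 ± 0.13. Among 12 complement genes tested, 2 were higher and 0 lower at an unadjusted p under 0.05. They were C1qa and C1qb, which are also among the microglia markers counted above. Cd55, which like Cd59a guards cells against complement, was at -0.07 ± 0.12. Of 5 piRNA pathway genes above the filter 1 was higher at an unadjusted p under 0.05, Ddx4, a germ cell RNA helicase, at 0.43 ± 0.12 (adjusted p = 0.127). Of 8 spliceosome genes, 2 were lower, Prpf8 and Snrnp200, at -0.10 and -0.13, and Snrnp200 itself lies 17.5 Mb after Bdnf. These counts stand against 16.6% of all genes tested at an unadjusted p under 0.05.

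Over the 10 libraries the genes whose log2(CPM + 0.5) ran most like that of Pla2g4e were 1810043H04Rik (Pearson's r = 0.943), Gins3 (0.928), Dctn3 (0.926), Zfand6 (0.925) and Mthfsl (0.918). The libraries form 4 groups, so these values mainly restate group differences and carry no test. All 5 lie on other chromosomes, and each was higher in Het-Met mice under both treatments, by 0.19 to 0.84 on the log2 scale under vehicle and by 0.19 to 0.49 under E2.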

How the data were processed

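According to the methods and labels, the 75-bp reads came from a stranded kit and were trimmed, filtered and mapped to mm10 by TopHat2. The authors deposited CPM per gene symbol, each library scaled to the same total and holding pooled RNA of 2 animals. In these deposited CPM, 100% of values were whole multiples of the worth of 1 read (tolerance 0.001 reads), which gave back the reads counted. Of 24421 symbols, 23376 were placed by GENCODE vM21, 265 by a RefSeq symbol and 684 by an older symbol, and 96 were not matched.

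Genes averaging 0.5 CPM or more (15081) were analysed as log2(CPM + 0.5). In R 4.3.3, limma 3.58.1 fitted 4 group means with a trended empirical Bayes variance (8.90 prior and 6 residual degrees of freedom). Tests were two-sided, with Benjamini-Hochberg adjustment over the whole table, and calls needed an adjusted p under 0.05 with a fold above 1.3. Replicates are libraries of pooled animals, and p-values measure the spread between them. Libraries of a treatment may hold mice of the same cage, so p-values for E2 and the interaction do not separate cage from treatment. The fits were also run on simulated data in which 200 genes had a genotype shift equal under both treatments. No interaction was simulated, so this does not measure how well an interaction would be found. Alternatives were pseudocounts of 0.1 and 1, other filters (none, or 2 CPM), median-of-ratios, TMM and quantile scaling, a replicate block, a covariate from 15 choroid plexus markers, fits to only the libraries compared, edgeR 4.0.16 and DESeq2 1.42.0 on the recovered reads, a window of 10 Mb, and each library left out. Promoter windows and figures used python 3.11.15, pandas 2.3.3 and matplotlib 3.10.9.

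The 10 genes and all lists were chosen with earlier results of these data known. Named genes were the 10 genes, Bdnf, the nearest tested gene on each side of each, up to 10 other genes within 20 Mb whose libraries did not overlap, relatives of the 10 genes, and the 5 genes most correlated with Pla2g4e. Any other gene (D930015M05Rik, 2810002D19Rik, Fahd2a) was chosen after its values were seen. Human libraries were not analysed here.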

Additional observations from a re-analysis of the deposited data

Results flagged for a closer look

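The genotype difference of 3 of the 10 genes differed between vehicle and E2 at an unadjusted p under 0.05 in limma, with a test of the interaction itself. The genes were listed on the genotype differences that make up the interaction, so this test is not free of the choice. The difference under E2 less that under vehicle was -0.36 for Pla2g4e, -0.72 for Cd59a and -0.89 for Chrm5 on the log2 scale. The adjusted p was 0.845, 0.683 and 0.566, so none passed the correction. With each library left out in turn the unadjusted p lay between 0.00537 and 0.128 for Pla2g4e, 0.00423 and 0.0898 for Cd59a and 0.00226 and 0.0406 for Chrm5. All 3 estimates kept their sign.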

How the results depend on the processing

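Over all genes, the count called by limma was 1 for genotype under vehicle, 4 under E2, 4 over both treatments, 11 for the interaction, 2 for E2 in OVX WT, 0 in OVX Het-Met (822 at an unadjusted p under 0.05) and 1 over both genotypes. These counts moved with the processing, and the cause was not tested. DESeq2 gave 34, 29, 88, 37, 14, 6 and 5. With only the libraries compared the count was 2 for genotype under vehicle, 52 under E2 and 1 for E2 in OVX WT mice. The replicate block gave 2 for genotype under E2, 18 for the interaction, 10 for E2 in OVX WT and 0 for E2 over both genotypes. For libraries of equal replicate number, deviations from the group mean correlated from -0.17 to 0.08 (12 pairs). In a group of 2 these deviations mirror each other, so the check cannot tell whether libraries were paired. The block called the 10 genes no differently for E2 or the interaction. Without a filter the counts were 0 for genotype under E2, 2 over both treatments, 0 for the interaction, 0 for E2 in OVX WT and 0 over both genotypes. At 2 CPM they were 5 for the interaction, 0 for E2 in OVX WT and 0 over both genotypes. The choroid plexus covariate left 0 for genotype under E2, 0 for the interaction and 0 for E2 in OVX WT. A pseudocount of 0.1 gave 0 for E2 in OVX WT and 0 over both genotypes, and a pseudocount of 1 gave 8 for genotype under E2 and 4 for E2 in OVX WT. Median-of-ratios scaling gave 10 for genotype under E2 (5 higher and 5 lower in Het-Met mice, against 3 and 1 as deposited) and 3 for E2 over both genotypes, TMM 3 for the latter, and quantile normalization 1 for genotype under E2, 7 for the interaction (1 positive and 6 negative, against 3 and 8) and 3 for E2 over both genotypes. edgeR gave 14 for genotype under E2 and 0 for E2 over both genotypes. With each library left out the counts ran from 1 to 2 for genotype under vehicle, 0 to 45 under E2 and 1 to 86 over both treatments, 0 to 71 for the interaction, and for E2 from 0 to 16 in OVX WT and 0 to 1 over both genotypes. The highest counts came without replicate 1 of OVX Het-Met mice with E2 (45, 71 and 16) or replicate 2 of those with vehicle (86), and the count for E2 in OVX WT and for genotype under E2 was 0 without either E2-treated WT library. Where a group of 2 lost a library, the lone one is assumed to vary like the other groups. Near Bdnf, the 2 genes past the fold and unadjusted p besides the 10 were 0 within 10 Mb and 4 in edgeR.

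Among the 10 genes, the genotype difference kept its sign under every alternative except that of Chrm5 under vehicle, which was 0.049 with the choroid plexus covariate and ran from -0.18 to 0.082 with libraries left out. With the covariate the interaction turned to -0.25 in Dnajc17 and -0.015 in Tgm7. With libraries left out it ran from -0.092 to 0.18 in Dnajc17, -0.041 to 0.28 in Ccdc73, -0.12 to 0.22 in Grem1, -0.14 to 0.42 in Tgm7 and -0.37 to 0.50 in 1700020I14Rik. No interaction of the 10 genes was called under any alternative. The E2 difference of Pla2g4e passed the threshold in 5 alternatives: over both genotypes with median-of-ratios, TMM and quantile scaling and DESeq2, and in OVX WT mice with DESeq2. Depth limits Tgm7 (5 to 21 reads per library), Exd1 (15 to 55) and Bambi-ps1 (22 to 52).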
